A study of Mus musculus with 2 samples.

Results

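Sst-expressing interneurons of the medial ganglionic eminence (MGE) were examined among single cells of the embryonic mouse telencephalon. The cells were chosen by a gate on raw counts of unique molecular identifiers (UMIs), each of which stands for 1 captured mRNA molecule. A member had at least 2 UMIs of Sst, at least 1 UMI of the MGE genes Lhx6 and Nxph1 together, and at least 2 UMIs summed over the GABAergic genes Gad1, Gad2, Dlx1 and Dlx6os1. It had no UMI of Top2a, Eomes or Neurod1, which mark dividing cells, intermediate progenitors and young excitatory neurons. The gate found 131 members among 16348 cells that held from 1500 to 60000 UMIs, less than 10% of them mitochondrial. They comprised 69 of 8139 cells in WT replicate 1 (0.848%, 95% Wilson interval 0.670 to 1.07%) and 62 of 8209 cells in WT replicate 6 (0.755%, 0.590 to 0.967%). Intervals cover counting error only.

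Both libraries came from wild-type (WT) embryos at embryonic day 16.5, the labels naming brain hemispheres as the tissue and the dorsal telencephalon as the dissected part. They form 1 group of the labels, from a series designed around Emx1-Cre-driven loss of the histone methyltransferase gene Dot1l, and the knockout was not analysed here. Beyond WT the labels do not state which Cre or Dot1l alleles these embryos carried. Cells were dissociated with papain and captured with 10x Genomics single-cell 3' chemistry. Nothing in the labels says whether the embryos shared a litter, so p-values measure the spread between these 2 libraries.

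Cortical interneurons release the inhibitory transmitter GABA. Those that later carry somatostatin arise in the MGE of the ventral telencephalon, where NKX2-1 switches on Lhx6, and migrate tangentially into the cortex. LHX6 acts upstream of SOX6 and SATB1 in this lineage, and adult SST interneurons, among them Martinotti cells and long-range projecting cells, inhibit the dendrites of excitatory neurons. Somatostatin is a peptide that is cut from a precursor, packed in dense core vesicles and released beside GABA.

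Sst lies at chr16:23889573-23891342 (GRCm38.p6, RefSeq). Its promoter holds a cAMP response element (CRE), the palindrome bound by CREB, in the window shown here because Sst defines these cells. The 30 bases at chr16:23890874-23890903, on the minus strand, are given with the CRE in capitals.
Sst CRE: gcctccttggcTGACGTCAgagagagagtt
The element lies at positions -48 to -41 from the start site that the RefSeq promoter table gives for Sst, base 23890844. The span of the gene reaches past that site, to 23891342, so the element lies inside the annotated span. The same 8 letters, TGACGTCA, occur in the 250 bases before the start site of 1.55% of 32851 RefSeq promoters, and its palindrome reads alike on both strands. Npy, the gene that followed Sst most closely among the members below, has no such match in the corresponding window of its promoter. A match is a description of letters, and factor binding was not measured.

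The members differed widely in Sst itself. Sst UMIs per cell ran from 2 to 157 with a median of 6 in WT replicate 1, and from 2 to 198 with a median of 5 in WT replicate 6. Those with 10 or more Sst UMIs, 26 and 18 cells, held 87.5% and 80.8% of the Sst UMIs of all members. At the other end, 15 and 13 members had exactly 2, just inside the gate, while 56 and 50 cells met every other condition with a single Sst UMI and stayed outside. Members accounted for 1366 of 1936 Sst UMIs in the cells kept of WT replicate 1 (70.6%) and for 863 of 1435 (60.1%) in WT replicate 6. Of 195 cells with at least 2 Sst UMIs, 64 fell outside the gate. A UMI of Top2a, Eomes or Neurod1 was found in 42 of those, 27 lacked Lhx6 and Nxph1, and 15 had too few GABAergic UMIs, and some cells missed several conditions. The values that chose the members are descriptions and were not tested.

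**Figure D1:**
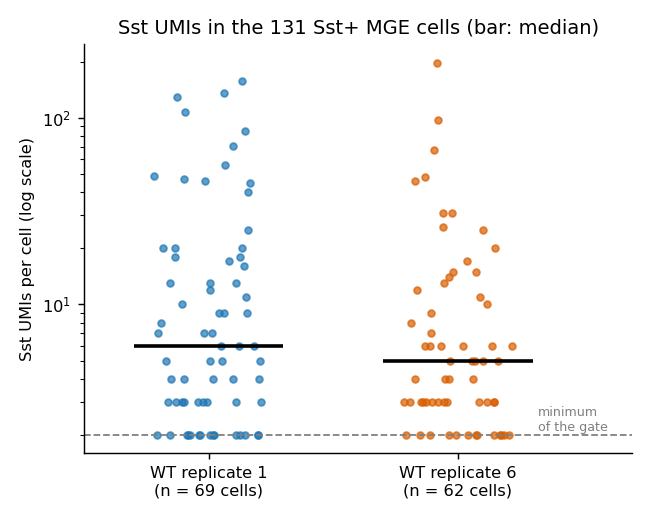
Sst UMIs per cell (log axis) in the Sst+ MGE cells, each point being 1 cell of WT replicate 1 (n = 69) or WT replicate 6 (n = 62), with a bar at the median. Medians were 6 and 5 UMIs, single cells reached 157 and 198, and the dashed line marks the minimum of 2.

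Of the genes used by the gate, whose detection it partly fixed, Lhx6 had a UMI in 76.8% and 69.4% of members, Nxph1 in 91.3% and 90.3%, Gad1 in 82.6% and 83.9%, and Gad2 in 88.4% and 91.9%. The label of MGE interneurons was checked with markers that the gate did not use. Sox6 was detected in 91.3% and 85.5% of members and Maf, which microglia also express, in 72.5% and 61.3%. With every cell thinned to 1500 UMIs, the shares were 73.9% and 69.4% for Sox6 and 46.4% and 40.3% for Maf, against 8.75% and 11.9% and 3.08% and 3.75% in the CGE-type cells defined below. CGE-type cells were chosen to lack Lhx6 and Nxph1, so this contrast is partly built into the gates and is no separate support for the label. Erbb4 did not set these classes apart as clearly, at 91.3% and 93.5% against 67.1% and 72.2%. The MGE progenitor factors Nkx2-1 and Lhx8 had a UMI in 8 and 7 of the 131 members. Of the striatal markers, Drd1, Ppp1r1b, Gpr6, Adora2a and Ikzf1 had no UMI, but 3 members held 97.8% of the 274 Ebf1 UMIs, 1 of them 222, and 1 member held 84 of 95 Foxp2 UMIs. Foxp1 had 144 UMIs and Rarb 39. Of 12 excitatory neuron markers, 12 and 11 had a UMI in the member sums, at a summed 1470.3 and 999.8 counts per 1e+06 UMIs of the class in that library (CPM), against 3529 and 3632 in the cells outside the MGE gate. The 14 striatal markers summed to 1006 and 288 CPM in members and to 1184 and 1064 outside the gate, so WT replicate 1 members lay near the other cells. Markers of dorsal neurons of the lateral ganglionic eminence (LGE) summed to 810 and 542 CPM, against 2836 and 2599. Whether tissue beyond the dorsal telencephalon was included was not tested. For the 6 erythroid markers the sums were 2051 and 6729 CPM, against 14706 and 21197 outside the gate. Microglia markers summed to 33.3 and 3.1 CPM, with C1qc and Tyrobp at 0, and endothelial markers to 14.6 and 9.29, with Cdh5 and Ly6c1 at 0. Hypothalamic and preoptic markers, 8 of 11 at 0, summed to 25.0 and 9.29 CPM, against 9.21 and 8.74 outside the gate. Members were thus not lower in this list, and edgeR called its gene Esr1 higher in members than in cells outside the gate.

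Another 3 classes were set against the members, always within these libraries. MGE cells without Sst met the same gate with no Sst UMI (719 and 689 cells). CGE-type interneurons, named after the caudal ganglionic eminence, had no Sst, Lhx6 or Nxph1 UMI and at least 2 UMIs of Prox1 and Adarb2 (617 and 586 cells). The class was mixed, since dorsal LGE markers summed to 7484 and 6880 CPM in it, striatal markers to 4012 and 3401, and CGE markers, Adarb2 of the gate included, to 4747 and 5480. Other cells were all those outside the MGE gate, CGE-type cells included (7295 and 7408 cells). UMIs were summed per class and library, since cells are not replicates. The member sums of 480157 and 323065 UMIs were the smallest, which limits precision, against 3974373 and 3320312 in MGE cells without Sst. Median depth was 6500 and 4989 UMIs in members and 4117 and 3967 in MGE cells without Sst, so the requirement of 2 Sst UMIs went with deeper cells. Levels of Xist differed between the libraries in both classes alike. It had 634 and 0 UMIs in members and 5145 and 0 in MGE cells without Sst. Ddx3y, a gene of the Y chromosome, went the other way, at 0 and 9 UMIs in members. The p-values thus rest on libraries that differ in these sex-linked genes.

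To find out how cells with Sst differed from MGE cells in which none was captured, the class sums were tested with edgeR's quasi-likelihood method. Among genes with at least 20 UMIs in each sum of the higher class, Vwc2l, Npy and Tmem132c were highest over MGE cells without Sst, and the kainate receptor genes Neto1 and Grik1 were also higher. Ccnd2, Adarb2 and Pbx3 were among the genes that were lower. Of 11357 genes tested, 64 were higher in members (0.564%) and 37 lower (0.326%) at an adjusted p under 0.05. With the library as a replicate block, 174 were higher and 166 lower, and these included all 64 and all 37. Each of the 64 and of the 37 had the same direction in both libraries, by at least 0.68 and 0.72 on the log2 scale. The same library sums chose these genes, so this agreement largely follows from the choice and is no separate support.

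**Figure D2:**
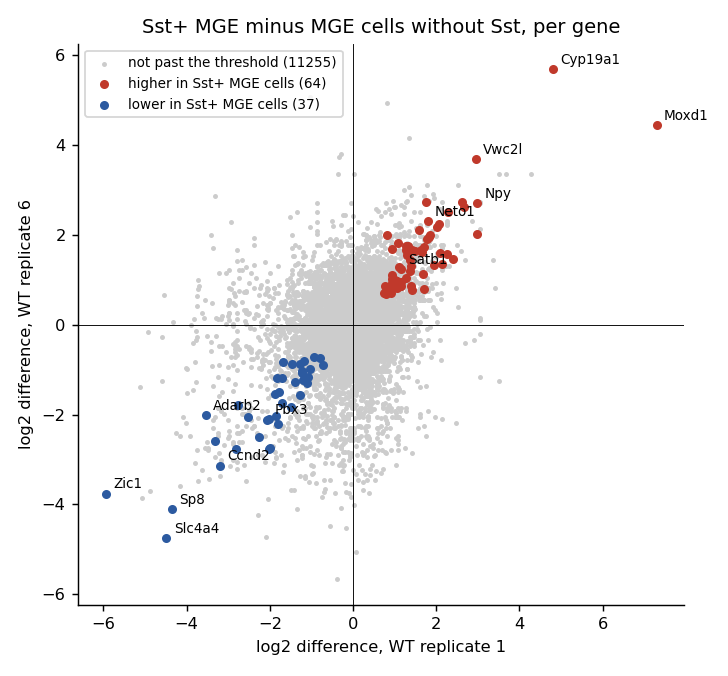
Log2 difference between Sst+ MGE cells and MGE cells without Sst for each gene tested (a symbol shared by 2 genes is drawn once), WT replicate 1 on the x axis and WT replicate 6 on the y axis. The 64 genes higher by edgeR's quasi-likelihood test (red) lie in the upper right and the 37 lower (blue) in the lower left, while genes that did not pass (grey) spread along both axes.

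Peptide genes came first. Npy (ENSMUSG00000029819, chr6:49822710-49829507), encoding neuropeptide Y, had 509 and 243 UMIs in the members, or 1060.1 and 752 CPM. In MGE cells without Sst it measured 135 and 115 CPM, although 21.6% and 17.6% of those cells had an Npy UMI. The log2 difference was 2.86 (SE 0.19, edgeR adjusted p = 0.00195), and each library alone gave 2.98 and 2.71. Pnoc, the precursor of nociceptin, measured 52.1 and 61.9 CPM in members and 13.1 and 13.9 without Sst (2.06, SE 0.26, edgeR adjusted p = 0.018). Of 28 peptide and peptide receptor genes, 10 had enough counts to be tested, and these were the only 2 that passed. The median log2 difference of the 10 was 1.56, beside -0.0041 over all genes tested. Cck (1.05) and Oprm1 (-0.39) did not pass. Other peptides were rare among the members. Cort, a paralog of Sst, had 4 UMIs in 3 cells, Tac1 11 UMIs in 5 cells, and Crh none.

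Among 18 genes for cutting peptides and for dense core vesicles, 15 were tested and Pcsk1n alone passed, whose product proSAAS inhibits a prohormone convertase. Its level was 275 and 347 CPM in members and 129 and 143 without Sst (1.18, SE 0.15, edgeR adjusted p = 0.0194). Cadps (0.28), Pam (0.63) and Ptprn2 (0.22) did not pass. The fit with the replicate block called 3 genes of the list, all higher.

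Genes that mark subtypes of SST interneurons in later life were mostly in 1 direction. Of 26 listed with subtypes of SST and parvalbumin cells, 11 were tested, 6 were higher and none lower, and the median log2 difference of the 11 was 1.90. The list was drawn up with earlier results of these data known. Elfn1, which directs facilitating excitatory input onto SST cells, measured 142 and 96.0 CPM in members and 33.2 and 31.9 without Sst (1.90, SE 0.21, edgeR adjusted p = 0.0122). The calcium-binding protein gene Calb1 stood at 156 and 86.7 CPM against 29.4 and 31.6 (2.05, SE 0.26, edgeR adjusted p = 0.018). Reln, encoding the secreted protein reelin, reached 364 and 402 CPM against 190 and 126, and Moxd1 had 9 and 9 UMIs against 0 and 4. Grin3a (1.86, SE 0.54, edgeR adjusted p = 0.171) and Nos1 (-0.74) did not pass. Nos1 and Chodl, which together with Npy mark the long-range projecting cells, had 4 UMIs in 4 members and 19 UMIs in 8. Calb2, encoding calretinin, was seen in 2 members, and Hpse and Pvalb in none of 131.

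Transcription factors of interneurons moved in both directions. All 29 listed were tested, 4 were higher and 4 lower, and 6 and 7 under the replicate block. The median log2 difference was -0.32. Satb1, needed for the maturation of SST cells, measured 360 and 350 CPM in members and 164 and 149 without Sst (1.18, SE 0.13, edgeR adjusted p = 0.0116). Nr2f2, the gene of COUP-TFII, was higher at 179 and 170 CPM against 57.9 and 54.2 (1.64, SE 0.14, edgeR adjusted p = 0.00383), and Nr2f1 by 0.94. The 4 lower genes were Sp8, Pbx3, Meis2 and St18. Sp8 had no UMI in members and 84 and 88 in MGE cells without Sst, at least 6.31-fold lower against a floor of 3 counts over all members. Pbx3 fell to 125 and 115 CPM from 528 and 504 (-2.10, SE 0.15, edgeR adjusted p = 0.00195), and Meis2 to 377 and 210 from 1311 and 986 (-1.94). St18, which is active in MGE cells of the globus pallidus, measured 18.7 and 18.6 CPM against 71.7 and 81.6 (-2.03). Zeb2, required for interneuron fate and migration, gave -0.73 (edgeR adjusted p = 0.0623) and passed with the block (edgeR adjusted p = 0.00137). Sox6 (0.61), Maf (0.39), Npas3 (-0.22), Lhx8 (-0.58) and Nkx2-1 (-0.67) did not pass.

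**Figure D3:**
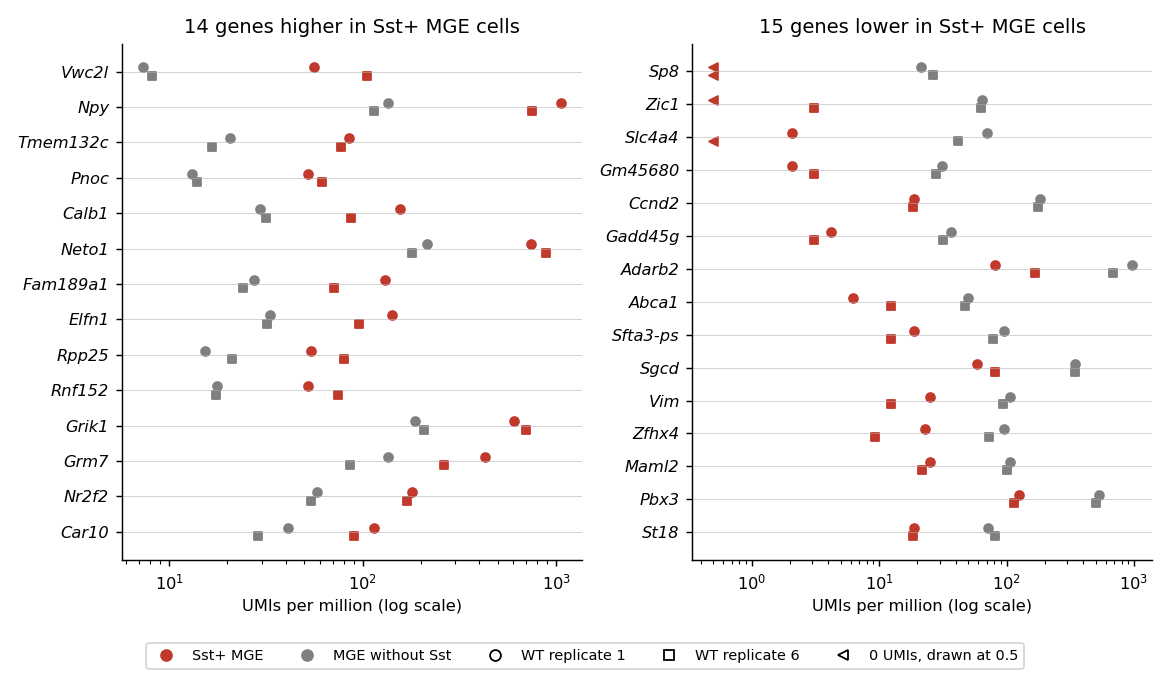
UMIs per 1e+06 (log axis) of 14 of the 15 genes with the largest positive log2 difference and the 15 with the largest negative, in Sst+ MGE cells (red) and MGE cells without Sst (grey), with WT replicate 1 as circles and WT replicate 6 as squares. No red point overlaps the grey points of its gene, which largely follows from choosing the genes by these same sums. Triangles, as for Sp8 in both libraries, mark 0 UMIs and are drawn at 0.5.

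Glutamate receptors and their partners formed a group in which most calls were higher. Of 21 receptor genes, 20 were tested, 4 were higher and 1 lower, the median being 0.40, and 8 and 1 under the replicate block. Grik1, a kainate receptor subunit, measured 604 and 696 CPM in members and 186 and 209 without Sst (1.71, SE 0.14, edgeR adjusted p = 0.00303). Neto1, an auxiliary subunit of kainate receptors, stood at 741 and 885 CPM against 215 and 179 (2.04, SE 0.15, edgeR adjusted p = 0.00222). Its 642 UMIs were spread over 82 members. The metabotropic receptor gene Grm7 (1.67) and the kainate subunit gene Grik2 (0.75) were higher as well. In Grm7, 3 members held 41.4% of 292 UMIs, and it was not called without likely doublets. Grm8 was lower (-1.78, SE 0.23, edgeR adjusted p = 0.0225), but its direction turned in 2 other gates described below. The AMPA receptor genes Gria1 (0.70, edgeR adjusted p = 0.0989) and Gria4 (0.22) and the NMDA subunit gene Grin2b (0.43) did not pass. Gria1 and Grin2b did with the block.

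Of the other genes with a large difference, Vwc2l, a secreted protein with von Willebrand factor C domains, had 27 and 34 UMIs in members and 29 and 27 in the much larger sums without Sst (log2 difference 3.32, SE 0.34, edgeR adjusted p = 0.0116). Those 61 UMIs came from 16 cells, 3 of which held 55.7%. Tmem132c (2.13), Fam189a1 (2.03), Rpp25 (1.85), Rnf152 (1.80) and Car10 (1.55), a carbonic anhydrase-related ligand of neurexins, were also among the 15 highest. In Car10, 3 cells held 72.6% of 84 UMIs, and it was called in 6 of 11 alternatives. Of 35 voltage-gated channel genes, 32 were tested and 1 passed, Kcnmb2, an auxiliary subunit of calcium-activated potassium channels. It measured 525 and 635 CPM against 201 and 256 (1.34, SE 0.16, edgeR adjusted p = 0.018). Kcnc2 (0.83, edgeR adjusted p = 0.0669), Kcnh7 (0.41) and Cacna1c (-0.07) did not pass. The replicate block called 4 channel genes higher and 1 lower. Of 30 synaptic adhesion genes, 27 were tested, and Cntnap2 (0.81) and Cdh13 (0.81) were higher, with 4 higher under the block.

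A few genes outside the rule for named genes were picked after their values were seen. Cyp19a1, encoding aromatase, had 8 and 32 UMIs in members and 2 and 6 in MGE cells without Sst. Its log2 difference of 5.49 (SE 0.91, edgeR adjusted p = 0.0406) rested on 6 cells, of which 3 held 90.0% of the UMIs. Esr1, the estrogen receptor gene, had 12 UMIs in 5 cells and did not pass (2.63, edgeR adjusted p = 0.138).

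Among genes of newborn neurons and progenitors, those that passed were all lower in members, beside 0.326% of all genes tested that were lower. Ccnd2, a cyclin of cycling progenitors, had 9 and 6 UMIs in members, or 18.7 and 18.6 CPM, against 181 and 177 CPM without Sst (-3.26, SE 0.21, edgeR adjusted p = 0.00195). Of 14 genes of newborn neurons it was the only one to pass, while Stmn1 (0.15), Tubb2b (0.14) and Sox11 (-0.00057) did not. Vim (-2.33) and Fabp7 (-1.70), both of radial glia, were the 2 lower among 9 of 12 progenitor markers tested, and Sox2 (0.33) and Slc1a3 (-1.79) did not pass. Under the block 4 progenitor markers were lower. Of 24 neuronal maturation genes, 22 were tested, and only Gap43, a growth cone protein gene, was higher, at 541 and 514 CPM against 284 and 253 (0.98, SE 0.13, edgeR adjusted p = 0.0249), and the block called 3.

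Adarb2, a marker of CGE interneurons, measured 81.2 and 167 CPM in members and 956 and 680 without Sst (-2.78, SE 0.30, edgeR adjusted p = 0.0116). In members 18 cells held its UMIs. Zic1 had 0 and 1 UMIs against 254 and 209, and Slc4a4 had 1 and 0 against 278 and 138. The ratio of MGE cells without Sst to members was 51.0 for Zic1 (95% counting interval 9.11 to 2018) and 45.8 for Slc4a4 (8.18 to 1814). For Gadd45g it was 9.21 (3.12 to 45.0) and for Gm45680 11.8 (3.24 to 98.4), from 3 and 2 UMIs in members. Gadd45g was called in 6 of 11 alternatives and Gm45680 in 7 of 11, and DESeq2 called neither. Slc4a4 was called in 8 of 10 and Zic1 in 9 of 10. Abca1 (-2.47), Sfta3-ps (-2.43), Sgcd (-2.33), Zfhx4 (-2.28) and Maml2 (-2.12) complete the 15. Of 9 dorsal LGE markers, all tested, 3 were lower and none higher, and of 8 CGE markers tested 2 were lower, with Nr2f2 higher.

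Cells with over 2 UMIs summed over Adarb2, Prox1, Meis2, Pbx3 and Sp8 were more frequent without Sst. They made up 41.3% and 37.2% of MGE cells without Sst and 23.2% and 14.5% of members. When such cells were left out of both classes, an alternative chosen after seeing the data, 131 genes were higher and 79 lower. These included 51 of the 64 and 14 of the 37. Of the 37, only 30 were tested there, the others being Adarb2, Meis2, Pbx3 and Sp8, which chose the cells left out, and 3 genes below the count filter. Vwc2l, Npy, Neto1, Elfn1, Grik1, Nr2f2 and Satb1 were called higher in that alternative too, and in all 10 others tried. Sgcd (0.13) and Grm8 (1.01) then changed sign, and Vim and Maml2 were no longer called. Requiring both Lhx6 and Nxph1 left 19 higher and 15 lower, 17 and 8 of them among the 64 and 37. There Pnoc, Calb1, Zic1 and Adarb2 did not pass, and Grm8 gave 0.18. The part that the mixture of cells without Sst plays in the lower genes was not tested further.

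No migration or guidance gene was called higher by edgeR. All 35 listed were tested, and 15 had an unadjusted p under 0.05, beside 1568 of all 11357 genes tested. Only 0.564% of all genes were called higher, so no higher call among 35 does not show an unchanged list. DESeq2 called none higher, and edgeR called 2 lower, 6 under the replicate block. The semaphorin co-receptor gene Plxna4 measured 296 and 316 CPM in members and 692 and 651 without Sst (-1.14, SE 0.13, edgeR adjusted p = 0.0165). Robo2, a receptor for SLIT proteins, stood at 648 and 820 against 1478 and 1431 (-0.99, SE 0.14, edgeR adjusted p = 0.0303). Plxna4 was called in 9 of 11 alternatives and Robo2 in 8 of 11, where its log2 difference ran from -1.20 to -0.40. Robo2 was not called once cells with genes of other GABAergic classes were left out. Erbb4, the neuregulin receptor gene, did not pass (-0.39, edgeR adjusted p = 0.281), although it did with the block (edgeR adjusted p = 0.0422). Cxcr4, the receptor for the chemokine CXCL12, had 16 and 9 UMIs in members (0.23, SE 0.32, edgeR adjusted p = 0.814), and Efnb2, the gene of ephrin B2, gave 0.03 (SE 0.15). Dcc (-0.55) and Epha5 (-0.22) did not pass either.

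Without the block, edgeR called none of the GABA handling genes (7 of 8 tested, 3 with an unadjusted p under 0.05), GABA receptors (13 of 14, 3) or synaptic vesicle genes (23 of 26, 11), and DESeq2 called 0, 0 and 1. With the replicate block edgeR called 0, 1 and 2, all higher. Median log2 differences of these lists were 0.21, 0.13 and 0.36, beside -0.0041 over all genes. Of all 11357 genes tested, 1568 had an unadjusted p under 0.05 by edgeR, and 0.564% were called higher and 0.326% lower. The absence of calls in lists this short therefore does not show that they were unchanged. Slc32a1, the vesicular GABA transporter gene, measured 68.7 and 99.1 CPM in members and 57.6 and 60.8 without Sst (0.46, SE 0.20). Syt1, the gene of a calcium sensor of synaptic vesicles, gave 0.36. Of 17 genes for DNA methylation and Dot1l, 14 were tested, none was called by either tool, and 2 had an unadjusted p under 0.05. Dnmt1, a DNA methyltransferase gene of interest in SST cells, had 20 and 17 UMIs in members, or 41.7 and 52.6 CPM, against 55.4 and 50.0 (-0.19, SE 0.22, edgeR adjusted p = 0.77). Dot1l had 16 and 11 UMIs (-0.30, SE 0.24, edgeR adjusted p = 0.67). With so few UMIs, small differences were not detectable at this depth.

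Stress genes induced by dissociation gave no call (9 of 16 tested, 3 with an unadjusted p under 0.05 beside 1568 of all 11357 genes tested, 0 by DESeq2), and Jun (0.63) and Hsp90aa1 (0.13) did not pass. Excitatory (11 tested, 5 under 0.05) and striatal markers (9 tested, 3) gave none by edgeR, with 1 lower in each by DESeq2 and by edgeR with the replicate block. The hemoglobin genes were not called, though the replicate block called 4 of 5 erythroid markers lower. Ebf1 had 525 and 68.1 CPM in members and 171 and 181 without Sst, so the libraries went opposite ways (0.84, edgeR adjusted p = 0.574). With at least 3 Sst UMIs per member, Ebf1 was lower (-4.27, edgeR adjusted p = 0.00055).

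Detection per cell was compared after thinning every cell to 1500 UMIs, so that depth was equal. Npy was then found in 46.4% (95% Wilson interval 35.1 to 58.0%) and 37.1% (26.2 to 49.5%) of members, and in 11.5% and 10.6% of MGE cells without Sst. Unthinned shares were 69.6% and 56.5% in members and 21.6% and 17.6% without Sst. Microglia-type cells, chosen by at least 10 UMIs of microglia markers and no GABAergic UMI, should lack the gene. Of 70 and 71 such cells, with median depths of 8120.5 and 6903 UMIs, 1 and 0 had Npy after thinning. Neto1 was detected in 43.5% and 46.8% of members against 18.2% and 16.5%, and Grik1 in 43.5% and 41.9% against 17.0% and 16.3%. Unthinned, the shares in members were 62.3% and 62.9% for Neto1 and 53.6% and 43.5% for Grik1, and microglia-type cells stood at 1.43% or below in both genes after thinning. For Nr2f2, members (17.4% and 16.1%) lay within the intervals of CGE-type cells (16.05% and 18.9%). Dnmt1, at 11.6% and 8.06%, overlapped the microglia-type shares of 4.29% and 7.04% in their intervals. Microglia-type cells were not taken to lack Dnmt1, which measured 54.3 and 44.9 CPM in them, so this overlap does not measure background.

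**Figure D4:**
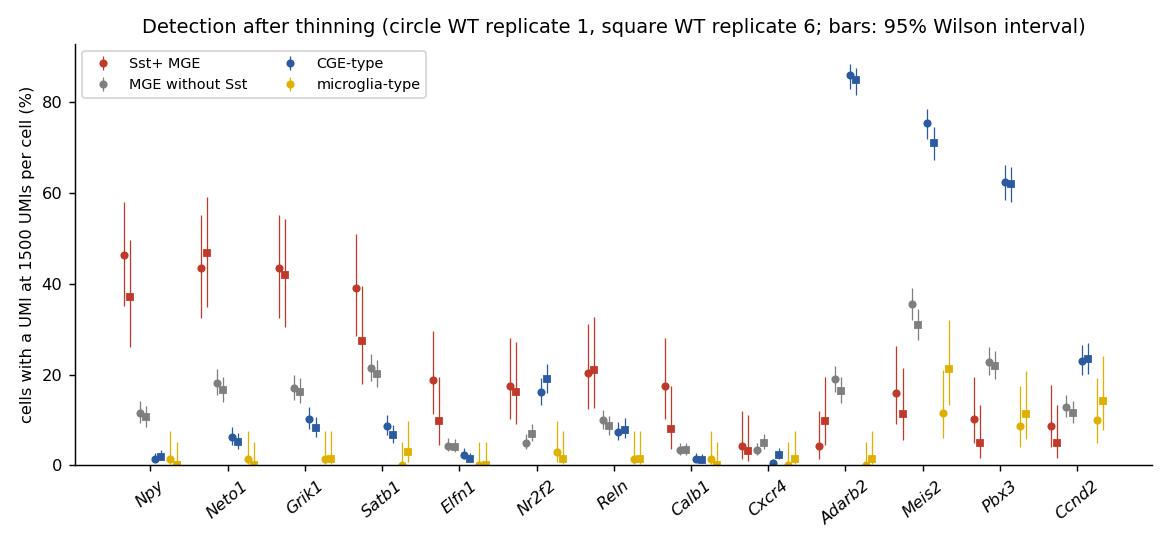
Share of cells with a UMI (%) after thinning each cell to 1500 UMIs, for 13 genes in Sst+ MGE cells, MGE cells without Sst, CGE-type and microglia-type cells, with circles for WT replicate 1, squares for WT replicate 6 and bars for 95% Wilson intervals. Npy reached 46.4% and 37.1% in Sst+ MGE cells and at most 11.5% in the other classes, whereas Adarb2 was highest in CGE-type cells, which were chosen partly by it.

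Set against the mixed class of CGE-type cells, the members differed in more genes. MGE lineage factors, SST subtype genes and most glutamate receptors were higher in members, while striatal and dorsal LGE genes were lower. CGE-type cells were chosen without Lhx6 or Nxph1, of which members needed a UMI, so the higher MGE lineage factors partly follow from the gates. Of 11107 genes tested, 401 were higher (3.61%) and 349 lower (3.14%) by edgeR's quasi-likelihood test. DESeq2 called 264 and 180. Prox1 and Adarb2 chose the CGE-type cells and were not tested. The 6 highest by rule were Mkx, Gm13986, Npy, Col19a1, Vwc2l and Cacng3. Mkx, a homeobox gene, had 32 and 22 UMIs in members against 2 and 0 (log2 difference 7.45, SE 0.55, edgeR adjusted p = 1.4e-05). Npy gave 6.54 (SE 0.33, edgeR adjusted p = 1.26e-06), with 19 and 42 UMIs in CGE-type cells. Cacng3, an AMPA receptor auxiliary subunit gene, measured 85.4 and 127 CPM against 4.12 and 4.68.

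Of the 28 transcription factors tested there, 9 were higher and 8 lower, the higher ones including Maf (4.33), Sox6 (3.25), Satb1 (2.52) and Nkx2-1 (2.17). Sox6 measured 1335 and 1588 CPM in members and 153 and 151 in CGE-type cells. Ackr3, a scavenging receptor for CXCL12, was among 8 of 35 migration genes that were higher, beside 9 that were lower, at 192 and 291 CPM against 13.0 and 11.03 (4.27, SE 0.23, edgeR adjusted p = 1.74e-06). Cxcr4 was higher too (1.87, SE 0.49, edgeR adjusted p = 0.0458), but 4 of 10 alternatives did not call it, DESeq2 among them. Glutamate receptors were higher in 11 of 20 tested and lower in 1, at a median of 1.02 beside -0.021 over all genes. Subtype genes were higher in 7 of 11, including Elfn1 (3.60), Calb1 (3.27) and Grin3a (1.95). The 6 lowest were Sp8, Ikzf1, Cenpf, Ano3, Rxrg and Creb5, each without a UMI in members. Against the floor of 3 counts over all members they were at least 13.8-fold lower (Sp8), 10.5-fold (Ikzf1), 6.04-fold (Cenpf), 5.83-fold (Ano3), 5.45-fold (Rxrg) and 4.82-fold (Creb5). Striatal markers were lower in 7 of 10 tested and dorsal LGE markers in 7 of 9.

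Against all other cells, 838 of 17667 genes were higher in members (4.74%) and 1308 lower (7.40%). TMM scaling moved the median of all genes from -0.14 to -0.20, and without it 944 and 1199 passed. DESeq2, with its own size factors, called 1302 higher and 1208 lower. Elfn1 (5.31), Neto1 (5.27), Dgkg (5.24), Rpp25 (5.14), Npy (4.97) and Vwc2l (4.85) led the higher genes by edgeR, each called in all 9 alternatives. Elfn1, Neto1, Rpp25, Npy and Vwc2l also led over MGE cells without Sst, which share the same member sums. Dgkg, a diacylglycerol kinase gene, measured 131 and 214 CPM in members against 4.17 and 4.29. Erbb4 was higher here (3.28), as were Slc32a1 (2.88), Cxcr4 (2.65) and Nrxn3 (2.22). Efnb2 (0.09, edgeR adjusted p = 0.691), Dnmt1 (-0.50, edgeR adjusted p = 0.13) and Dot1l (-0.30, edgeR adjusted p = 0.509) did not pass. The 6 lowest were the proliferation genes Cenpf and Pbk, the vascular and connective tissue genes Igfbp7 and Col3a1, the platelet and macrophage gene Pf4, and Creb5. Each had no UMI in members, which stood at least 35.9-fold lower in Cenpf, 24.7-fold in Creb5 and 15.1-fold in Igfbp7. Of 12 excitatory markers, 10 were lower and none higher. Among SST and parvalbumin subtype genes, 10 of 18 were higher and Nos1 was lower.

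Last, the members were compared among themselves. For each of 4429 genes with a UMI in at least 20% of the 131 members, the level was correlated with that of Sst over cells, as a description in which all cells share 2 libraries. Npy had the highest Spearman correlation, at 0.43, with 0.61 in WT replicate 1 and 0.20 in WT replicate 6. Gap43 followed at 0.42 (0.41 and 0.43), and Uchl1, an abundant neuronal deubiquitinase, at 0.36 (0.35 and 0.34). Xylt1 (0.32), Baz2a (0.32), Ly6h (0.31), Tshz2 (0.29), Prxl2a (0.29), Ndn (0.29) and Arxes1 (0.28) complete the 10. The median over all genes was -0.013, and the Sst level, scaled to the UMIs of the cell, and UMI depth had a correlation of -0.068. At the other end stood Zeb2 (-0.41), Grip1 (-0.39), an AMPA receptor scaffold gene, and Mef2c (-0.36), a transcription factor gene. Their values in single libraries were all below 0, at -0.39 and -0.43 for Zeb2.

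Depth rose with the number of Sst UMIs, the median being 5222 and 3588.5 UMIs per cell at 2 to 3 Sst UMIs, 5758 and 5000 at 4 to 9, and 7601 and 6403.5 at 10 or more. Grouped in this way, members with 10 or more had 1762 and 1035 CPM of Npy, those with 4 to 9 had 852 and 861, and those with 2 to 3 had 197 and 360. MGE cells with a single Sst UMI lay at 73.3 and 127, near the 135 and 115 of cells with none. The order was thus alike in both libraries from 2 UMIs upward, though the step at the top was small in WT replicate 6. Gap43 rose from 246 and 279 CPM at 2 to 3 Sst UMIs to 730 and 874 at 10 or more. Zeb2 ran the other way, from 1265 and 1502 to 452 and 577. Neto1 differed from these. Cells with 1 Sst UMI already held 525 and 498 CPM, against 215 and 179 with none, and the highest group 1041 and 917. Nr2f2 stood at 49.2 and 54.0 CPM at 2 to 3 Sst UMIs, 223 and 255 at 4 to 9, and 240 and 212 at 10 or more. Group sizes were 24 and 26, 19 and 18, and 26 and 18 cells, and the groups were not tested.

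**Figure D5:**
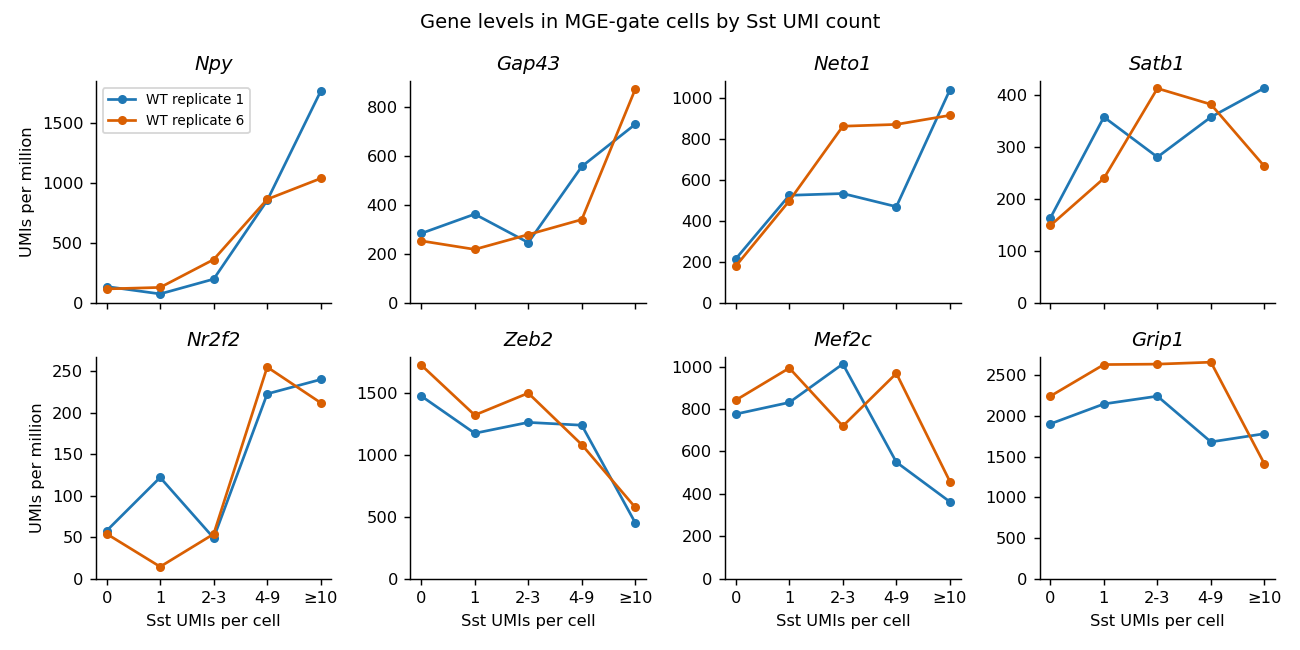
UMIs per 1e+06 of 8 genes in MGE-gate cells grouped by Sst UMIs per cell (0, 1, 2 to 3, 4 to 9, 10 or more), as lines for WT replicate 1 (blue) and WT replicate 6 (orange). Npy climbs to 1762 and 1035 CPM and Zeb2 drops to 452 and 577 in the group with 10 or more Sst UMIs.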

How the data were processed

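Single-cell RNA-seq of 2 wild-type E16.5 libraries (WT replicates 1 and 6) was used. Per the labels, reads were processed with Cell Ranger 7.0.0 on mm10, and the authors deposited raw UMI counts, 1 value for each gene and barcode, with no normalization. WT replicate 1 held 14136 barcodes and 74930397 UMIs and WT replicate 6 13046 and 68964234. Whether intronic reads were counted is not given in the sources used here, so a gene was compared only with itself. The libraries shared 59 barcodes, none among members.

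Members, comparators and gene lists were chosen with earlier results of these data known. UMI counts were summed per class and library and compared with edgeR 4.0.16 (glmQLFit, glmQLFTest, two-sided, TMM, filterByExpr, R 4.3.3), with Benjamini-Hochberg adjustment over all genes tested. Genes of the gate and mitochondrial genes stayed in library sizes but were not tested. The classes of a library were captured together, and same-library deviations from the class means were correlated over genes at r = 0.13, 0.13 and 0.085 (MGE without Sst, CGE-type, other cells), so the library was also fitted as a replicate block. Log2 differences in a single library used 0.5 added UMIs. The fit was tested on simulated data. Doublets were scored with Scrublet (scanpy 1.11.5) and left out only in an alternative. Coordinates and the promoter came from RefSeq tables of GRCm38.p6, of which mm10 is the same assembly.

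Named genes were the 15 highest and 15 lowest by log2 difference (6 and 6 in the other comparisons) at adjusted p under 0.05, with 1 direction in both libraries and at least 20 UMIs in each sum of the higher class. To these came, from each list, up to 4 called genes a direction and the 3 most abundant that did not pass, the study's genes and those most correlated with Sst. Genes named beyond these (Ackr3, Chodl, Cort, Crh, Cyp19a1, Ddx3y, Hpse, Lhx8, Maf, Nkx2-1, Pvalb, Reln, Tac1, Xist, markers at 0, and list genes in the last 2 comparisons) were chosen after their values were seen. Alternatives were DESeq2 1.42.0, no TMM, no count filter, the replicate block, 1 joint fit of 3 classes, other Sst and MGE thresholds, a depth range, no doublets and, added later, no cells with genes of other GABAergic classes. Some named genes are not reported here.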

Additional observations from a re-analysis of the deposited data

How the results depend on the processing

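Counts against MGE cells without Sst (64 higher and 37 lower) moved by over 1.5 times under several settings. They were 260 and 436 with no filter on low counts, 174 and 166 with the library as a replicate block, 106 and 74 with at least 3 Sst UMIs, and 19 and 15 with both Lhx6 and Nxph1 required. They were 138 and 118 for cells of 2500 to 10000 UMIs, 115 and 92 with 3 classes in a single fit, and 131 and 79 without cells carrying genes of other GABAergic classes. Against CGE-type cells (401 and 349), DESeq2 gave 264 and 180, and 669 were lower with no filter. Against other cells (838 and 1308), DESeq2 gave 1302 higher, and no filter gave 531 and 737. The causes were not tested, except that settings with fewer cells sum fewer UMIs. The block moved no count in the last 2 comparisons by over 1.5 times.

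The share of members (0.848% and 0.755%) was 1.54% and 1.36% with at least 1 Sst UMI, 0.663% in WT replicate 1 with at least 3, 0.577% and 0.451% with both MGE genes, and 1.23% and 1.10% of cells of 2500 to 10000 UMIs. Single genes changed sign 5 times: Sgcd (0.13) and Grm8 (1.01) without cells of other GABAergic classes, Grm8 (0.18) with both MGE genes, and Ebf1 with at least 3 Sst UMIs (-4.27) and in the depth range (-1.03). Leaving out a library left 1 sum a class, so counts of calls could not be recomputed, and the values of the single libraries stand in the report. Summed member UMIs of 480157 and 323065 limit what could be detected for genes such as Dnmt1 and Dot1l.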
